A study of Mus musculus with 6 samples.

Results

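The genes described here are 10 genes that mark the mural cells of blood vessels, pericytes and vascular smooth muscle cells, in bulk RNA-seq of mouse striatum. They were taken as a fixed list of symbols, Pdgfrb, Rgs5, Kcnj8, Abcc9, Vtn and Notch3 for pericytes and Acta2, Myh11, Tagln and Cnn1 for smooth muscle. The genes were chosen with earlier results of these data known. All 10 were found among the 55335 gene identifiers of the count tables, and 9 passed the filter on low counts that left 19809 genes for testing. The samples were 3 striata of C57 mice labelled as overexpressing PDE5A and 3 of C57 mice labelled WT. The labels give neither the age of the mice, nor how PDE5A was raised and in which cells, nor what the WT mice received. They do not tie each sample to its own animal, so p-values describe sample-to-sample spread that may be technical. The stated purpose was to find molecular changes that follow PDE5A overexpression in this tissue. PDE5A hydrolyses cyclic GMP and is a well known regulator of tone in vascular smooth muscle.

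Pericytes wrap brain capillaries and share a basement membrane with the endothelium, while smooth muscle cells form the contractile sheath of arterioles. Endothelial PDGF-B recruits both through the receptor encoded by Pdgfrb, and Notch3 receives signals from neighbouring cells that keep arterial smooth muscle mature. In smooth muscle, nitric oxide raises cyclic GMP, which activates the kinase encoded by Prkg1 and relaxes the vessel, and PDE5A ends that signal.

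The overexpression libraries held 33013698 to 39271447 counts and the control libraries 40653784 to 42288789. The targeted gene checked the labels, since Pde5a had 760, 700.5 and 592 CPM (counts scaled to a common library total) in overexpression replicates 1 to 3, against 3.72, 4.14 and 6.09 CPM in the controls. Whether those reads came from the endogenous gene cannot be told from gene counts. Striatal identity was clear, with Ppp1r1b, the DARPP-32 gene of medium spiny neurons, at 991 to 1907 CPM under overexpression and 1133 to 1887 CPM in control. Libraries stood apart in what else they held. The summed level of 14 choroid plexus markers was 547, 2519 and 36.1 CPM in overexpression replicates 1 to 3, against 55.3 to 76.5 CPM in control. The log2 fold changes of all 14 were positive, their median being 3.25, and 0 passed edgeR's test, with 7 at an unadjusted p under 0.05, 13 in DESeq2 and 0 in limma-voom. Over all 19809 genes those tools had 446, 433 and 442 higher and 324, 271 and 324 lower at an unadjusted p under 0.05. The summed level of 8 cortical neuron markers was 313, 603 and 1187 CPM under overexpression and 533, 130 and 933 CPM in control replicates 1 to 3. The log2 fold changes of all 8 were positive with a median of 0.42. Of 11 medium spiny neuron markers 2 were positive, with a median of −0.02. In both neuron lists 0 passed or had an unadjusted p under 0.05 in any of the 3 tools.

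None of the mural genes passed the test for a difference between the groups. By the quasi-likelihood test of edgeR, adjusted by the Benjamini-Hochberg method, 0 of the 9 tested had an adjusted p under 0.05. Over all genes 1 passed, Pde5a itself, which is 0.00505% of those tested. At an unadjusted p under 0.05 there was 1 mural gene, Vtn, beside 770 of the 19809 genes, or 3.89%, and the DESeq2 Wald test and limma-voom likewise called 0 of the 9 and had 1 at an unadjusted p under 0.05. Of the 9 fold changes 4 were above and 5 below 1, and their median was −0.09 on the log2 scale, against 0.00 for all genes tested. The median turned with single libraries. Leaving out control replicate 2 gave 0.10 and leaving out overexpression replicate 3 gave 0.05. With overexpression replicates 1 and 2 set aside, the libraries high in choroid plexus markers, it was 0.02 and again 0 mural genes passed. In bulk tissue, fewer cells of a type and less RNA per cell cannot be told apart.

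Among the receptors, Pdgfrb (ENSMUSG00000024620, chromosome 18, 61045150 to 61085061, plus strand, mm10) encodes the PDGF receptor β by which pericytes are held to capillaries. It had 18.5, 21.3 and 21.6 CPM in overexpression replicates 1 to 3, against 19.6, 24.1 and 21.4 CPM in control replicates 1 to 3. The highest value was a control and the lowest an overexpression library, but the other 4 libraries were interleaved. The fold change was 0.942 with a 95% interval of 0.791 to 1.12. Notch3 (ENSMUSG00000038146, chromosome 17, 32120820 to 32166852, minus strand), a receptor of mural cells, had 18.9, 14.6 and 16.3 CPM under overexpression and 16.4, 17.0 and 14.6 CPM in control. The lowest library was a control and the highest an overexpression library, with the ranges largely shared, and the fold change was 1.04 with an interval of 0.860 to 1.26. The antisense gene model Gm17276 shares 488 exon bases with Notch3 and had 1.63 to 5.50 CPM across the libraries. The libraries were strand-specific, but the strand setting of the counting is not given in the sources used here, so the division of reads between the pair is uncertain.

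Rgs5 (ENSMUSG00000026678, chromosome 1, 169655501 to 169695813, plus strand) encodes a regulator of G protein signalling that shortens the response to vasoconstrictors and is among the most abundant pericyte transcripts. It had 67.9, 83.02 and 89.9 CPM in overexpression replicates 1 to 3, against 73.0, 99.7 and 87.3 CPM in control replicates 1 to 3. Replicate 1 was the lowest of each group, and the ranges overlapped over most of their length. The fold change was 0.927 with an interval of 0.737 to 1.164. The replicates differed far more than counting allows, the within-group chi-square divided by its degrees of freedom being 73.3.

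Vtn was the mural gene whose groups did not overlap. It lies on chromosome 11 from 78499091 to 78502324 on the plus strand (ENSMUSG00000017344) and encodes vitronectin, an adhesive protein of plasma and extracellular matrix that brain pericytes also make. It had 54.4, 51.9 and 54.3 CPM under overexpression and 41.9, 47.0 and 45.1 CPM in control, or 53.5 ± 1.42 and 44.7 ± 2.57 CPM (SD, n = 3 each). Every overexpression library lay above every control library. The fold was 1.20 with a 95% interval of 1.07 to 1.34, taken for this gene alone. By edgeR the unadjusted p was 0.00580 and the Benjamini-Hochberg adjusted p 0.937, the gene standing at rank 121 of 19809 by p, so it did not pass. Over all genes tested, 4.81% had every overexpression library above every control library and 4.11% had them all below. Among the 10 mural genes 1 was separate in the higher direction and 0 in the lower, a share near that background. The log2 fold change of Vtn was 0.26 and lay between 0.22 and 0.30 in 16 other settings, with adjusted p from 0.434 upward. It was 0.28 without overexpression replicates 1 and 2, and replicate 3, the overexpression library with the lowest choroid plexus level, had 54.3 CPM. Over the 6 libraries the level of Vtn had r = 0.41 with that of the choroid plexus markers and 0.68 with that of 12 fibroblast markers (exact permutation p = 0.465 and 0.133, rho = 0.14 and 0.71 with exact permutation p = 0.803 and 0.136). Without the 2 libraries farthest in each level r was −0.85 and 0.997. The part of these cells in the Vtn difference was not tested. Vtn has close neighbours, with 1336 bases between it and Sarm1 and 1122 bases between it and Sebox, but overlaps neither.

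**Figure D1:**
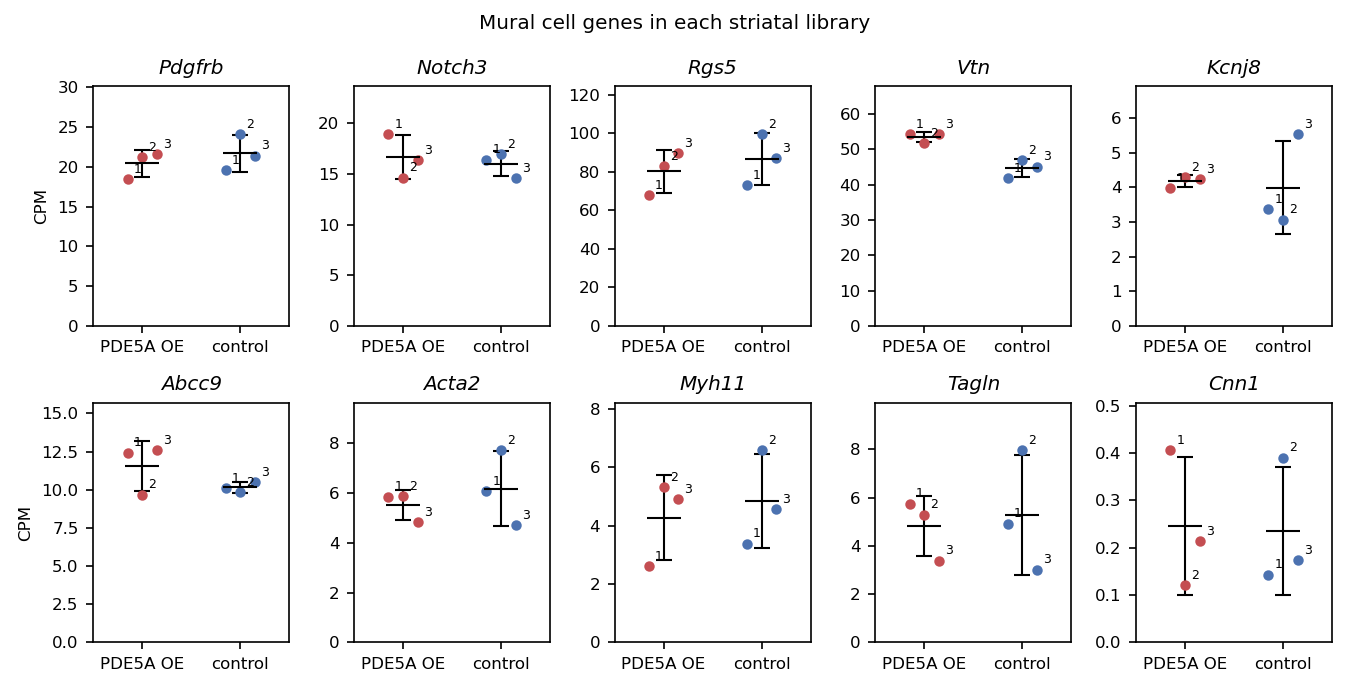
Levels in CPM (vertical axis from 0) of the 10 mural cell genes in the 3 PDE5A overexpression libraries (red, left in each panel) and the 3 control libraries (blue, right), with replicate numbers. Black marks are the group mean ± SD. Vtn has every overexpression library, at 51.9 to 54.4 CPM, above every control library, at 41.9 to 47.0 CPM, and the other 9 genes have overlapping groups.

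Kcnj8 and Abcc9 encode the pore subunit Kir6.1 and the regulatory subunit SUR2 of the vascular ATP-sensitive potassium channel, which hyperpolarises mural cells and widens vessels. They are neighbours on the minus strand of chromosome 6, Kcnj8 (ENSMUSG00000030247) from 142564837 to 142571614 and Abcc9 (ENSMUSG00000030249) from 142587862 to 142702315, with 16247 bases between them. Kcnj8 had 3.98, 4.30 and 4.24 CPM under overexpression and 3.36, 3.07 and 5.54 CPM in control. The overexpression libraries were tightly placed inside the wider control range, which control replicate 3 set at its upper end. The SD was 4.14% of the mean under overexpression and 33.8% in control, and the fold change was 1.05 with an interval of 0.710 to 1.54. Abcc9 had 12.4, 9.69 and 12.6 CPM under overexpression and 10.1, 9.85 and 10.5 CPM in control. Replicates 1 and 3 of the overexpression group lay above all controls and replicate 2 below them all. The fold change was 1.14, with an interval of 0.929 to 1.40 and an unadjusted p of 0.177 in edgeR's quasi-likelihood test. Per kilobase of exon, the ratio of Kcnj8 to Abcc9 was 1.05, 1.46 and 1.11 under overexpression and 1.10, 1.02 and 1.73 in control. On this scale Kcnj8 was above Abcc9 in every library, and the groups overlapped. In CPM Abcc9 was the higher in every library. The order thus rests on dividing by all annotated exon bases, 2548 for Kcnj8 and 8373 for Abcc9, and does not show which transcript was more abundant. The related channel of neurons and beta cells, named here outside the rule for naming genes, had Kcnj11 at 36.4 ± 3.28 and Abcc8 at 17.3 ± 4.71 CPM under overexpression and 35.0 ± 2.54 and 14.8 ± 1.91 CPM in control (SD, n = 3).

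The contractile genes of smooth muscle were low. Acta2 (ENSMUSG00000035783, chromosome 19, 34241090 to 34255590, minus strand) encodes smooth muscle α-actin, the thin filament of the arteriolar wall. It had 5.85, 5.87 and 4.83 CPM in overexpression replicates 1 to 3, against 6.08, 7.70 and 4.70 CPM in control replicates 1 to 3. The overexpression libraries lay within the control range. The fold change was 0.895 with an interval of 0.648 to 1.24, and it turned to a log2 value of 0.03 without control replicate 2. The actins are close in sequence, so reads of Acta2 could be shared with its relatives. Of these Actb had 938 ± 35.3 CPM under overexpression and 919 ± 50.1 CPM in control (SD, n = 3). Acta1 had 4.86, 4.66 and 6.11 CPM under overexpression and 3.29, 2.78 and 4.45 CPM in control. Its groups did not overlap, as in 4.81% of all genes tested in that direction. By edgeR's test its unadjusted p was 0.0310 and its adjusted p 0.999963. The sharing of reads was not tested.

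Myh11 (ENSMUSG00000018830, chromosome 16, 14194535 to 14291372, minus strand) encodes the smooth muscle myosin heavy chain and is the strictest marker of that lineage. It had 2.61, 5.32 and 4.91 CPM under overexpression and 3.39, 6.58 and 4.58 CPM in control. Replicate 1 was the lowest of each group and replicate 2 the highest. The fold change was 0.882 with an interval of 0.515 to 1.51. The log2 value of −0.18 became 0.10 without control replicate 2 and 0.08 without overexpression replicate 1.

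Tagln (ENSMUSG00000032085, chromosome 9, 45929619 to 45936058, minus strand) encodes transgelin, an actin-binding protein of the calponin family. Its levels were 5.75, 5.29 and 3.39 CPM under overexpression and 4.91, 7.95 and 3.02 CPM in control. Control replicates 2 and 3 were the highest and the lowest of all 6 libraries, so the controls enclosed the overexpression group. The fold change was 0.909 with an interval of 0.498 to 1.66, the widest of the 9. Its log2 value of −0.14 was 0.28 with control replicate 2 left out and 0.06 with overexpression replicate 3 left out. With overexpression replicates 1 and 2 both left out it was −0.65. Its exons meet others on the opposite strand. Tagln shares 1241 exon bases with the antisense model Gm48529, at 2.23 ± 0.243 CPM under overexpression and 2.45 ± 0.129 CPM in control, and 108 with Pcsk7, at 25.4 ± 2.89 and 24.6 ± 1.38 CPM (SD, n = 3), both on the opposite strand. Without the strand setting its count is uncertain to that extent.

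Cnn1 (ENSMUSG00000001349, chromosome 9, 22099216 to 22109630, plus strand), which encodes calponin 1, an inhibitor of actomyosin in differentiated smooth muscle, was near the limit of detection. It had 16, 4 and 8 counts under overexpression and 6, 16 and 7 counts in control, sums of 28 and 29. The filter left it out of the test. With no filter its log2 fold change was 0.07, with an unadjusted p of 0.909 in edgeR's quasi-likelihood test. In the settings with fewer libraries where it passed the filter, its direction turned with the library omitted. Omitting overexpression replicate 2 gave 0.39 and omitting overexpression replicate 3 gave 0.18. Omitting control replicate 1 gave −0.17, control replicate 3 −0.087, and overexpression replicates 1 and 2 together −0.14. No difference was detectable at this depth.

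**Figure D2:**
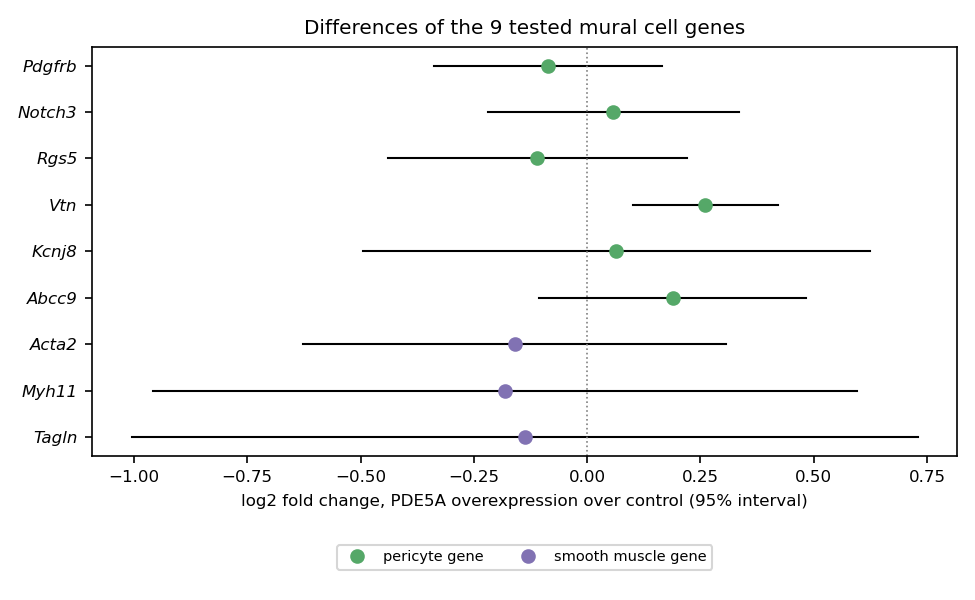
Log2 fold change of PDE5A overexpression over control (horizontal axis) for the 9 mural cell genes that were tested, with 95% intervals from the edgeR fit as lines, for pericyte genes (green) and smooth muscle genes (purple). The interval of Vtn, at 0.26, lies above 0 and the other 8 intervals cross it, with the widest for Tagln and Myh11.

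The intervals set what these samples could show. For Pdgfrb, Rgs5, Notch3, Vtn and Abcc9 they kept within 0.737-fold and 1.40-fold. They were wider for Kcnj8, at 0.710 to 1.54, and for Acta2, at 0.648 to 1.24. The widest were those of Myh11, at 0.515 to 1.51, and Tagln, at 0.498 to 1.66. For the genes other than Vtn a change within the gene's own interval could not be told from none. The interval of Vtn, at 1.07 to 1.34, excluded 1. It was taken for this gene alone, and the Benjamini-Hochberg adjusted p of edgeR's test was 0.937. A p that misses the threshold does not show equal levels.

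Per kilobase of exon, the order of the mean levels over all 6 libraries was Vtn, Rgs5, Pdgfrb, Acta2, Tagln, Notch3, Kcnj8, Abcc9, Myh11 and Cnn1, from 24.2 to 0.0881 CPM per kilobase. Vtn at 24.2 and Rgs5 at 18.4 CPM per kilobase together made up 64.1% to 67.9% of the summed CPM of the 10 genes in any library. Vtn was above Rgs5 in 6 of 6 libraries although their ranges overlapped. In CPM Rgs5 was the higher in every library, at 67.9 to 99.7 CPM against 41.9 to 54.4 CPM for Vtn. The order of this pair thus rests on dividing by all annotated exon bases, 4546 for Rgs5 and 2030 for Vtn. It does not show which transcript was more abundant. Rgs5 and Pdgfrb, at 3.85 CPM per kilobase, had separate ranges. Acta2 at 2.66 and Tagln at 2.54 CPM per kilobase did not differ beyond their spread, Acta2 being above Tagln in 4 of 6 libraries. Tagln was above Notch3 in 4 of 6 libraries and Notch3 above Kcnj8 in 5 of 6, again with overlapping ranges. In CPM Notch3 was above Tagln in every library, so that order too rests on exon length. Myh11 at 0.601 CPM per kilobase lay below Abcc9 in every library with separate ranges, and Cnn1 lay below Myh11 in the same way.

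The mural genes did not vary as a single block across the libraries. Of their 45 pairs 25 had a positive and 20 a negative correlation of log2 CPM over the 6 libraries, with a median r of 0.055. Pdgfrb and Rgs5 varied together most closely, with Pearson's r = 0.98 (exact permutation p = 0.00139) and Spearman's rho = 1 (exact permutation p = 0.00278), and r = 0.97 without the 2 libraries farthest from the median of Pdgfrb. Myh11 joined them, with r = 0.97 to Pdgfrb and 0.95 to Rgs5 (exact permutation p = 0.00556 and 0.00694, rho = 0.83 for each with exact permutation p = 0.0583). Without those 2 libraries these were 0.92 and 0.81. A second pair was Acta2 and Tagln, with r = 0.97 and rho = 0.77 (exact permutation p = 0.0111 and 0.103), and r = 0.91 without control replicates 2 and 3. Acta2 and Myh11, actin and myosin of the same cells, had r = 0.24, both being highest in control replicate 2. None of the 45 pairs passed Benjamini-Hochberg adjustment of the two-sided exact permutation tests, the smallest adjusted p being 0.0625, and 7 were under 0.05 before it. Control replicate 2 held the highest level of 5 genes, Pdgfrb, Rgs5, Acta2, Myh11 and Tagln, while it had the lowest level of Kcnj8. Overexpression replicate 1 had the lowest Pdgfrb, Rgs5 and Myh11 and the highest Vtn, Notch3 and Cnn1.

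**Figure D3:**
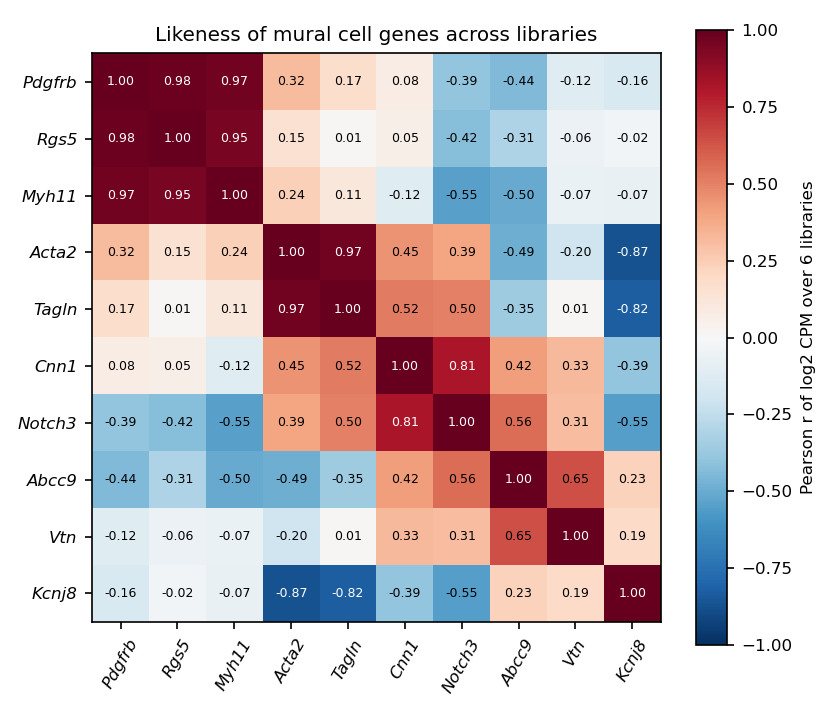
Pearson's r between the log2 CPM values of each pair of the 10 mural cell genes over the 6 libraries, from −1 (blue) to 1 (red). Pdgfrb, Rgs5 and Myh11 form a block at 0.95 to 0.98, Acta2 and Tagln a pair at 0.97, and Kcnj8 runs against that pair at −0.87 and −0.82. For Kcnj8 with Acta2 and Tagln the exact permutation p was 0.0222 and 0.0444, and 0.2 and 0.304 after Benjamini-Hochberg adjustment. Without control replicates 2 and 3 r was −0.56 and −0.24.

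Relations to the levels of other cell types also varied between the genes. Rgs5 and Pdgfrb followed the mean log2 CPM of 14 endothelial markers, with r = 0.90 and 0.83 (exact permutation p = 0.0167 and 0.0375) and rho = 0.94 for each (exact permutation p = 0.0167). Without control replicates 1 and 2, the farthest in endothelial level, r was 0.83 and 0.72. Myh11 had r = 0.75 and rho = 0.77 with that level (exact permutation p = 0.0903 and 0.103), and r = 0.55 without those libraries. The other 4 pericyte genes had values nearer 0, with r = 0.066 for Kcnj8, 0.093 for Abcc9, 0.22 for Vtn and −0.12 for Notch3 (exact permutation p = 0.888, 0.81, 0.681 and 0.79). With 1 library left out r ran from −0.31 to 0.71 for Kcnj8 and −0.26 to 0.44 for Abcc9. It ran from −0.46 to 0.48 for Vtn and −0.32 to 0.24 for Notch3, so 6 libraries do not settle whether these genes follow the endothelial level. Their rho was −0.029, 0.029, 0.14 and −0.14 (exact permutation p = 1, 1, 0.803 and 0.803). Acta2 and Tagln had r = 0.03 and −0.04 with the endothelial level (exact permutation p = 0.947 and 0.9125, rho = −0.029 and 0.086). Without control replicates 1 and 2 r was −0.93 and −0.91, so the values near 0 rest in part on those libraries. Acta2 and Tagln ran against cortical neuron markers, with r = −0.94 for each (exact permutation p = 0.0167 and 0.00833, rho = −0.71 and −0.94 with exact permutation p = 0.136 and 0.0167). They ran along with 11 medium spiny neuron markers, at r = 0.85 and 0.92 (exact permutation p = 0.0444 and 0.0125, rho = 0.71 and 0.94 with exact permutation p = 0.136 and 0.0167). Without the 2 libraries farthest in cortical level r was −0.73 for Acta2 and −0.91 for Tagln, and without the 2 farthest in spiny neuron level it was 0.53 and 0.80, so that the relations of Acta2 rest in part on those libraries. Of 110 relations between a mural gene and the level of another list, 8 were under 0.05 in the two-sided exact permutation test of r and 0 after Benjamini-Hochberg adjustment, where the smallest value was 0.458. The part of tissue composition in the levels of Acta2 and Tagln was not tested.

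**Figure D4:**
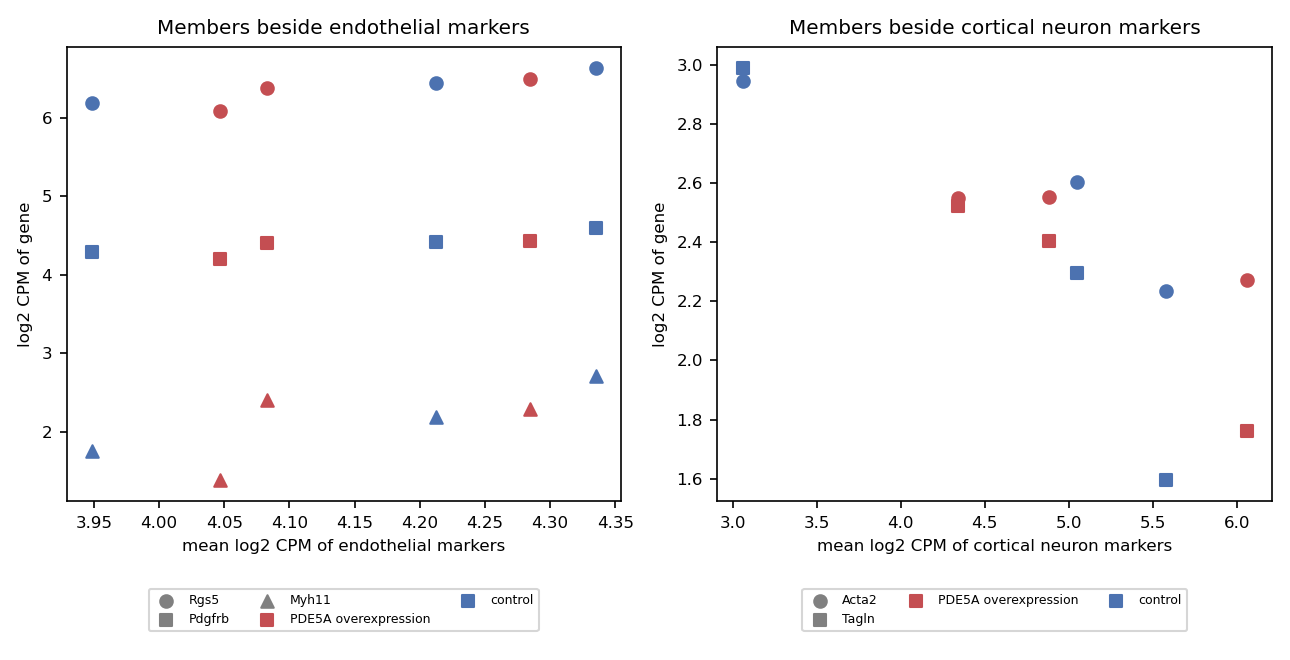
Left, log2 CPM of Rgs5, Pdgfrb and Myh11 (vertical axis) against the mean log2 CPM of endothelial markers (horizontal axis) in each library. Right, log2 CPM of Acta2 and Tagln against the mean log2 CPM of cortical neuron markers, with PDE5A overexpression in red and control in blue in both panels. Rgs5 and Pdgfrb are higher in libraries with more endothelial transcripts (r = 0.90 and 0.83), Myh11 less closely so (r = 0.75), and Acta2 and Tagln are lower in libraries with more cortical transcripts, with both groups spread along each trend.

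The sum of the pericyte genes, to which Rgs5 and Vtn give the most, was set against the endothelium. The summed CPM of the 6 pericyte genes per summed CPM of the 14 endothelial markers was 0.532, 0.535 and 0.526 in overexpression replicates 1 to 3, against 0.534, 0.511 and 0.5002 in control replicates 1 to 3. The overexpression ratios spanned less than 0.01 around a mean of 0.531, and control replicate 1 lay among them. Between single pericyte genes, Vtn per Pdgfrb on the CPM per kilobase scale was 7.95, 6.58 and 6.78 under overexpression and 5.78, 5.25 and 5.69 in control. These groups did not overlap, as those of Vtn alone did not. Rgs5 per Pdgfrb was 4.43, 4.70 and 5.02 under overexpression and 4.49, 4.98 and 4.91 in control, with overlapping groups. Neither ratio was tested. The 4 smooth muscle genes per endothelial marker gave 0.0442, 0.0480 and 0.0353 under overexpression and 0.0473, 0.0576 and 0.0338 in control, again with overlapping groups. Endothelial markers themselves had a median log2 fold change of −0.03, with 0 of 14 passing edgeR's test and 0 at an unadjusted p under 0.05. Mfsd2a, a lipid transporter of the blood-brain barrier, had the smallest p among them, at 8.38 ± 1.69 CPM under overexpression and 10.1 ± 0.816 CPM in control. Ly6c1, a surface protein of endothelium, came next at 21.7 ± 0.626 CPM under overexpression and 19.4 ± 2.37 CPM in control (SD, n = 3).

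Further mural genes were taken from lists of textbook markers. Of 16 other pericyte genes, 10 had positive and 6 negative fold changes, and the median was 0.06 on the log2 scale. In edgeR's test 0 passed and 2 had an unadjusted p under 0.05, beside 3.89% of all genes tested. DESeq2 and limma-voom called 0 of them, with 1 each at an unadjusted p under 0.05. Those 2 were Slc6a20a, an amino acid transporter also found in choroid plexus and meninges, and Ggt1, γ-glutamyltransferase. Slc6a20a had 8.44, 13.4 and 10.1 CPM under overexpression and 6.75, 7.46 and 7.99 CPM in control. The groups did not overlap, and the library with the highest choroid plexus level, overexpression replicate 2, had the highest value. Overexpression replicate 3, with the lowest choroid plexus level, had 10.1 CPM, above the 8.44 CPM of replicate 1. The part of choroid plexus in the Slc6a20a difference was not tested. The fold change of Slc6a20a was 1.43 (unadjusted p = 0.0201 and adjusted p = 0.999963 in edgeR's quasi-likelihood test). Its log2 value of 0.52 was 0.44 without overexpression replicates 1 and 2. Ggt1 had 2.58, 2.44 and 1.71 CPM under overexpression and 1.46, 1.56 and 1.66 CPM in control. Anpep, the aminopeptidase CD13 of pericytes, had 2.03, 2.26 and 2.16 CPM under overexpression and 1.91, 1.73 and 1.83 CPM in control, a separation with an unadjusted p of 0.231 in edgeR's test. In all, 3 of the 16 were separate in the higher direction and 0 in the lower, beside 4.81% and 4.11% of all genes tested.

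Of 20 other smooth muscle genes 19 were tested, 10 positive and 9 negative, with a median log2 fold change of 0.02. By edgeR's test 0 passed, with 1 at an unadjusted p under 0.05, beside 3.89% of all genes tested. DESeq2 likewise had 1 and limma-voom 0. The gene in edgeR's test was Sncg, γ-synuclein, which neurons also express. It had 1.49, 1.20 and 0.747 CPM under overexpression and 2.60, 2.10 and 1.36 CPM in control, with overlapping groups. Flna, the actin cross-linker filamin A, had 109, 88.5 and 92.4 CPM under overexpression and 81.6, 86.1 and 84.01 CPM in control. All 3 overexpression libraries were above the controls, at a fold of 1.15 with an unadjusted p of 0.0515 in edgeR's test. Of the 20 genes, 1 was separate in the higher direction and 0 in the lower, beside 4.81% and 4.11% of all genes tested. Cald1, the actin-binding caldesmon, had 28.4 ± 1.77 CPM under overexpression and 30.1 ± 1.43 CPM in control (SD, n = 3). Levels in the list were uneven. Csrp1 and Tpm1, named here outside the rule, had means of 349 and 209 CPM under overexpression and 366 and 198 CPM in control. Lmod1, likewise outside it, had 1.88 and 1.93 CPM, and Acta2 5.52 and 6.16 CPM. Bulk levels of this list may therefore not be those of smooth muscle alone.

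Signals to and within mural cells likewise gave no calls. Of 15 genes of PDGF-B, Notch, TGF-β and angiopoietin signalling, 10 were positive and 5 negative, with a median log2 fold change of 0.06, 0 passing edgeR's test and 0 at an unadjusted p under 0.05, as in DESeq2 and limma-voom. The ligand Pdgfb, which endothelium sends to Pdgfrb, had 16.1, 19.7 and 22.0 CPM under overexpression and 14.3, 15.2 and 19.6 CPM in control, with overlapping groups. Angpt1, the ligand through which mural cells stabilise endothelium, had 4.97 ± 1.253 CPM under overexpression and 3.80 ± 0.864 CPM in control (SD, n = 3). Notch1, an endothelial and neural receptor, had 31.4, 27.3 and 29.9 CPM under overexpression and 33.5, 31.6 and 31.5 CPM in control. The overexpression libraries were all lower, with an unadjusted p of 0.155 in edgeR's test. Of the 15 genes, 1 was separate in the lower direction and 0 in the higher, beside 4.11% and 4.81% of all genes tested.

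The transcription factors of the contractile programme were 8, of which 7 were tested and 0 passed or had an unadjusted p under 0.05 in edgeR, DESeq2 or limma-voom. Srf, the serum response factor that binds contractile gene promoters, had 36.4 ± 5.22 CPM under overexpression and 38.3 ± 3.85 CPM in control. Its coactivator Mrtfb had 257 ± 16.4 and 244 ± 22.0 CPM, and its partner Elk1 had 58.5 ± 3.71 and 62.6 ± 6.29 CPM (SD, n = 3). Myocd, the coactivator restricted to muscle and chosen here outside the rule, was at 0.405, 0.271 and 0.107 CPM under overexpression and 0.167, 0.171 and 0.346 CPM in control. Bulk levels of these factors may not be those of mural cells alone.

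Of 12 genes of nitric oxide and cyclic GMP action in smooth muscle, 7 were positive and 5 negative, with a median log2 fold change of 0.04. None passed in edgeR, DESeq2 or limma-voom or had an unadjusted p under 0.05 there. Prkg1, the cyclic GMP-dependent kinase, had 6.33, 6.98 and 8.03 CPM under overexpression and 8.45, 7.68 and 10.4 CPM in control, with a fold change of 0.805 and an interval of 0.625 to 1.04. Vasp, an actin regulator that this kinase phosphorylates, had 11.0 ± 1.23 CPM under overexpression and 9.56 ± 0.857 CPM in control. Npr2, a membrane guanylyl cyclase, had 31.8 ± 2.91 and 29.0 ± 2.08 CPM (SD, n = 3). Many of these genes are also expressed by striatal neurons, so their bulk levels are not those of mural cells alone.

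Fibroblasts of the vessel sheath and meninges share genes with mural cells. Of 12 fibroblast markers 11 were positive, beside 10030 of all 19809 genes tested, with a median log2 fold change of 0.25. In edgeR's test 0 passed and 2 had an unadjusted p under 0.05, beside 3.89% of all genes tested. DESeq2 had 3 and limma-voom 2 at that level, and both called 0. Of the 12, 2 were separate in the higher direction and 1 in the lower, beside 4.81% and 4.11% of all genes tested. Fmod, the matrix proteoglycan fibromodulin, had 1.95, 1.93 and 2.38 CPM under overexpression and 1.31, 1.54 and 0.9898 CPM in control. Pdgfra, which oligodendrocyte precursors also express, had 52.6, 49.7 and 46.2 CPM under overexpression and 58.1, 63.3 and 66.6 CPM in control, with a fold change of 0.790 and an adjusted p of 0.849 in edgeR's quasi-likelihood test. Igf2, which choroid plexus stroma also makes, had 35.8, 106 and 22.0 CPM under overexpression and 19.8, 23.2 and 17.8 CPM in control. It was highest in the library with the highest choroid plexus level, and the part of choroid plexus in its levels was not tested. Red cell genes, a sign of blood left in vessels, had summed levels of 117 to 207 CPM under overexpression and 148 to 185 CPM in control, and 0 of 5 passed or had an unadjusted p under 0.05 in any of the 3 tools.

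Genes most like the mural genes across libraries were sought among 16034 other genes with at least 1 CPM on average. The mean log2 CPM of the 4 smooth muscle genes included Cnn1, which had 4 to 16 counts. That mean was most like Zdhhc18 (r = 0.995), Mthfd2l (0.986), Efr3b (0.985), Gm26944 (0.983) and Smndc1 (0.983), over 6 libraries. That of the pericyte genes was most like Gnl2 (r = 0.988), Rps6kl1 (0.988), Il16 (0.979), Wdr74 (0.979) and Pcnx3 (0.975). As many as 140 genes exceeded r = 0.9 for the first and 118 for the second. With 6 libraries and so many candidates these are a description without a test.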

How the data were processed

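The deposited tables, 1 for every striatal sample, list raw read counts by Ensembl gene identifier, as whole numbers with no normalization. Trizol extraction of total RNA preceded strand-specific TruSeq library construction, per the labels' protocols. The tools STAR 2.5.3a, DESeq 1.16.1, FastQC 0.11.5 and Cuffnorm, and the build mm10, are listed without roles, per the submitters' processing notes. Which program counted reads, with which annotation and strand option, is not given in the sources used here. Symbols, coordinates and exon lengths came from GENCODE M21 for the same assembly, which matched 55154 of 55335 identifiers. Samples were grouped by their titles.

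The main test was that of edgeR 4.0.16, run under R 4.3.3 (filterByExpr, TMM factors, robust quasi-likelihood F-tests, two-sided, Benjamini-Hochberg adjustment over 19809 genes, threshold 0.05). The fits were checked on simulated counts drawn with the edgeR fit's own dispersions, with larger changes added than any fitted for the mural genes. The check therefore does not cover changes as small as theirs. Fold changes are overexpression over control, intervals are 95% from the fit's t distribution, and SE is the log2 fold change over the square root of F. CPM uses TMM-adjusted totals and log2 CPM a prior count of 2. DESeq2 1.42.0 and limma 3.58.1 (voom) were alternatives, with other scalings, filters, a replicate block and omitted libraries. Library totals were 33013698 to 42288789. No libraries were duplicates, since pairs within a group had chi-square values of 20.8 to 54.9 times their degrees of freedom.

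The 10 genes and 11 further lists were chosen with earlier results of these data known. The naming rule takes the 10 genes, Pde5a, up to 3 genes per list with the smallest p and the 5 genes most like each mural set. The result of 1 gene among those the rule selects is not reported here.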

Additional observations from a re-analysis of the deposited data

How the results depend on the processing

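Under 16 other settings 0 of the tested mural genes passed, whichever library was left out. The number of genes called overall was 83 with the DESeq2 Wald test, 5 with limma-voom, 3 with no low-count filter, 3 with an adjusted p of 0.1 as threshold, 5 without overexpression replicates 1 and 2 (where the lone overexpression library is assumed to vary like the controls) and 1 to 2 when 1 library was left out. The median log2 fold change of the mural genes lay between −0.16 and 0.10 with single libraries omitted. With replicate number as a block 3 genes were called and 0 mural genes. Same-numbered libraries did not deviate together in every pair, with correlations of −0.02, 0.03 and 0.29 over genes, so the numbers were not taken as pairing.

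Of 144 log2 fold changes of single mural genes under other settings, 133 kept their direction and 11 turned, with no call in either case. With single libraries omitted the values spanned −0.21 to 0.0041 for Rgs5, −0.092 to 0.38 for Kcnj8, −0.32 to 0.034 for Acta2, −0.38 to 0.10 for Myh11, −0.41 to 0.28 for Tagln and −0.046 to 0.14 for Notch3. Among other genes they ran from −0.20 to 0.23 for Hba-a2, −0.36 to 0.076 for Hbb-bs, −0.24 to 0.58 for Cux2, −0.26 to 1.20 for Neurod2, −0.41 to 0.10 for Penk, −0.42 to 0.11 for Adora2a, −0.12 to 0.36 for Tac1 and −0.15 to 0.037 for Srf. Hba-a2 was at −0.025 with limma-voom and −0.0089 with the replicate block. Without overexpression replicates 1 and 2, Rgs5 was at 0.051, Myh11 at 0.016, Ttr at −0.79, Mfsd2a at 0.033 and Tac1 at −0.58. The cause of these turns was not tested. Levels under 1 CPM, such as Cnn1, are limited by depth.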
